A study of Mus musculus with 6 samples.

Results

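The genes described here are those of de novo lipogenesis, the route by which a cell builds fatty acids from carbohydrate and other small precursors. They comprised 7 enzymes (Acly, Acss2, Me1, Acaca, Acacb, Fasn and Aacs) and 3 regulators (Srebf1, Mlxipl and Thrsp), picked by gene symbol, and all 10 were among the 13490 genes measured. RNA was sequenced from inguinal white adipose tissue, a subcutaneous fat depot, of wild-type male C57BL/6J mice aged 15 weeks. One group of 3 mice (replicates 9, 10 and FC16) had drunk 300 ppb sodium arsenite, an inorganic trivalent arsenic salt, for 9 weeks, and the other group of 3 mice (replicates 4, 6 and 8) had drunk distilled water for as long. The comparison asks how transcripts of this depot differed between these groups, in a series whose title concerns adaptive thermogenesis. For each gene the deposited table gave the authors' mean over each group, a log2 ratio of arsenite over water and a posterior probability that expression was equal in both (PPEE). A gene counted as called when its PPEE did not exceed 0.05. Sequencing gave 20000000 mapped reads per sample by the labels. Individual mice were not analysed here. The means therefore carry no SD, and beyond the authors' PPEE no difference could be set against the spread between mice.

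In lipogenesis, citrate exported from the mitochondrion is cleaved in the cytosol to acetyl-CoA. Acetyl-CoA carboxylase turns this into malonyl-CoA, and fatty acid synthase joins malonyl units into palmitate at the cost of NADPH. Insulin and sterols act on the pathway through the transcription factor SREBP1, the product of Srebf1, and glucose metabolites act through ChREBP, the product of Mlxipl. In adipose tissue the pathway is known to respond to feeding and, in brown and beige fat, to cold.

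Promoters of 6 start sites are shown, and the windows of Acacb, Me1 and Srebf1, which also carry matches counted below, are not. Those shown belong to the members with the lowest ratios (Acly, Acss2 and Thrsp), to the synthase itself and to the regulator Mlxipl. Each is the 250 bases before a RefSeq start in GRCm38.p6, read on the gene's own strand, with capitals marking motif matches on either strand. They lie at chr11:100528001-100528250 on the minus strand for Acly, chr2:155517793-155518042 on the plus strand for Acss2, chr7:97417551-97417800 on the minus strand for Thrsp and chr11:120824548-120824797 on the minus strand for Fasn. The Mlxipl windows, both on the plus strand, lie at chr5:135106641-135106890 (start 1) and chr5:135089640-135089889 (start 2).
Acly: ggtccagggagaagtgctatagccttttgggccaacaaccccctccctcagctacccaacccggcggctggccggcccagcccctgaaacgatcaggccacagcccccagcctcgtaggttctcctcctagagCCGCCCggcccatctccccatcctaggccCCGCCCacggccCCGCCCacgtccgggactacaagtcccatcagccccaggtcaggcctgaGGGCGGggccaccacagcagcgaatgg
Acss2: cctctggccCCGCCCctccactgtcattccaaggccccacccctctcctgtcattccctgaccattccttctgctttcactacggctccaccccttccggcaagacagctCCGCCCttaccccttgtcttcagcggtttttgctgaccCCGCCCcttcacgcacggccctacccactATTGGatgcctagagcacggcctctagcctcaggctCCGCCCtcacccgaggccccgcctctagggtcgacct
Thrsp: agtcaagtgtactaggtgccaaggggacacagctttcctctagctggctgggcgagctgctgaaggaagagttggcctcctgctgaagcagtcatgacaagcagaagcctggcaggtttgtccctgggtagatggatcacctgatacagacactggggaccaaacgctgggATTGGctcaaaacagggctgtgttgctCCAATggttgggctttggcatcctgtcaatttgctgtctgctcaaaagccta
Fasn: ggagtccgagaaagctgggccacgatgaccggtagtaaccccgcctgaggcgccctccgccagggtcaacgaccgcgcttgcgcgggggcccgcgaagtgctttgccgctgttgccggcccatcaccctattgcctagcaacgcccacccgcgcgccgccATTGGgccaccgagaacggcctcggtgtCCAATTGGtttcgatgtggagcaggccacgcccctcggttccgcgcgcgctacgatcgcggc
Mlxipl start 1: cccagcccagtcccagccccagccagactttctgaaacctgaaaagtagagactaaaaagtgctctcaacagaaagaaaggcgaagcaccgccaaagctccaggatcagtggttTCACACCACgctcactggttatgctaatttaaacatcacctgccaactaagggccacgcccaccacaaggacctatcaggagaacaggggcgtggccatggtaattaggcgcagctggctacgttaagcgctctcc
Mlxipl start 2: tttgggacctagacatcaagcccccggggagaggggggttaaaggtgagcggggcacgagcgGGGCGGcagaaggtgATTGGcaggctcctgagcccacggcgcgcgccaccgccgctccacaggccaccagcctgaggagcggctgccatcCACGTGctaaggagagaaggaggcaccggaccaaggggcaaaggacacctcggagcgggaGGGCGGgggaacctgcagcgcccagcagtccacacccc

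The search covered 4 motifs on both strands in these 250 bases. RefSeq gave 14 such windows for the 10 genes, with a median GC content of 62.8%, against 52.4% in all 32851 windows. GC content was not computed for the windows of measured genes alone. A core of the sterol regulatory element (SRE, TCACNCCAC) was in 1 of the 14 windows, that of Mlxipl start 1, or 7.14%, against 1.05% of all windows and 0.979% of those of measured genes. The E-box CACGTG, a sequence that basic helix-loop-helix factors such as SREBP1 and ChREBP can bind, was also in 1 window, Mlxipl start 2, or 7.14% of the 14, against 6.02% of all windows and 8.17% of those of measured genes. The NF-Y box CCAAT was in 8 windows of 7 genes, 57.1% of the windows against 33.8% of all windows and 34.9% of those of measured genes. Fasn held 3 such matches, of which 2 overlap each other, and Thrsp held 2. The GC box GGGCGG was in 6 windows of 5 genes, 42.9% against 32.7% of all windows and 55.6% of the 13579 windows of measured genes. Acly and Acss2 had 4 GC boxes each. No motif overlapped a different one, and none of these letter runs occurred in the windows of Acaca or Aacs. All windows of Acaca, Acacb, Fasn and Srebf1 lie inside the gene spans given below. Sequence before the upstream ends of those spans was not searched. A match describes the letters in a window and says nothing about binding in this tissue.

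**Figure D1:**
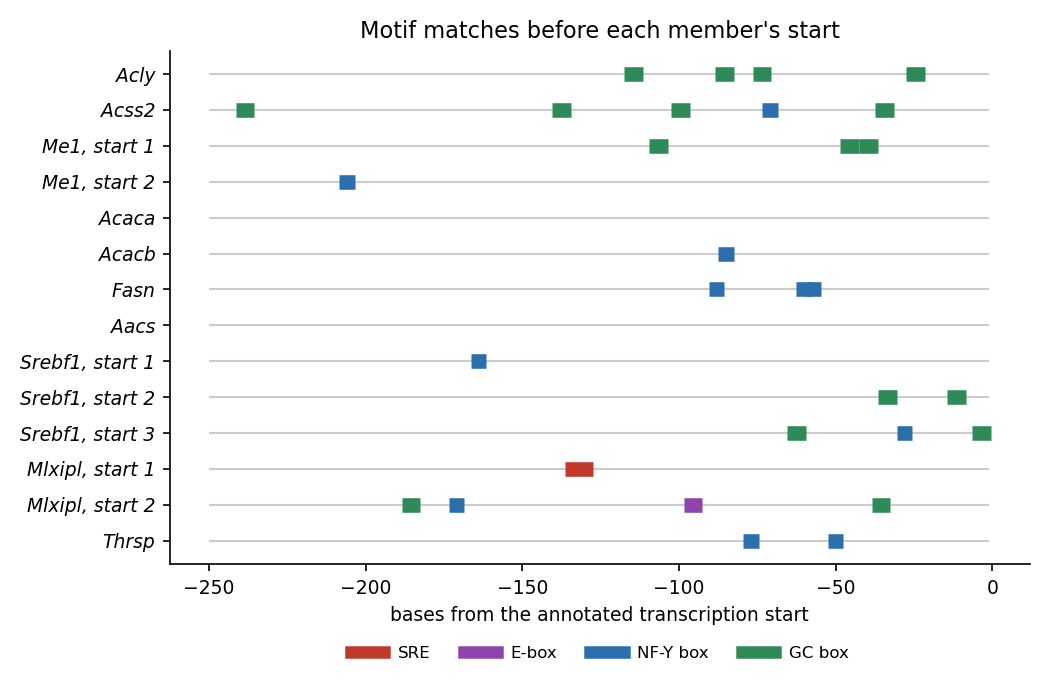
Positions of the 4 motifs (coloured bars) in the 250 bases before each annotated start of the 10 genes. The horizontal axis is the distance in bases from the start. The NF-Y boxes of Fasn and Thrsp lie within the last 100 bases, and the windows of Acaca and Aacs carry none of the motifs.

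Arsenite was accompanied by lower authors' means for all 10 lipogenesis genes, from 40.1% of the water mean for Acly to 88.7% for Srebf1. The median log2 ratio of the 10 was -0.90, against -0.03 over all genes and -0.17 over the 1457 genes whose 2 group means averaged at least 1000, a level that all 10 members reached. After quantile normalization these medians were -0.63, -0.00 and -0.01. A ratio below 0 was common, at 54.5% of all genes and 70.5% of those high-level genes. A log2 ratio of -0.8 or lower was found for 6 of the 10 members, 2.49% of all genes and 3.16% of high-level genes. Both the members and the bound of -0.8 were chosen with earlier results of these data known, so these shares are description only. After quantile normalization 3 members reached that bound (Acly, Acss2 and Thrsp), with 2.31% of all genes and 1.85% of high-level genes. None of the 10 was called, where 0.734% of all genes were called in either direction (52 genes or 0.385% higher, 47 genes or 0.348% lower) and 1.3% of high-level genes. Nor was any called with PPEE bounds of 0.01 or 0.1, which called 0.467% and 0.882% of all genes. By the authors' deposited table their PPEE ran from 0.992 for Mlxipl to 0.9996 for Fasn. Such high values favour equal expression in both groups, despite the low ratios. A PPEE above 0.9 was given to 12816 of the 13490 genes. The ratio reached 1 in either direction on the log2 scale for 11 of the 99 called genes. Of the 46 high-level genes with a ratio of -0.8 or lower, 1 was called, the elongase gene Elovl6. In a bulk tissue, fewer cells of a type and less RNA per cell cannot be told apart.

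Among the 4 roles of the members, the genes supplying acetyl-CoA and NADPH had the lowest summed means relative to water, at 45.7% of the water sum. Acly, ATP citrate lyase, which makes cytosolic acetyl-CoA from citrate, had an authors' mean of 5211 in arsenite-treated mice and 12994 in water-treated mice. It was 2.49-fold lower under arsenite, and the authors' deposited table put its log2 ratio at -1.32, the lowest of the 10 members, and its PPEE at 0.999. A lower ratio was found for 0.563% of all genes. Acss2, the cytosolic enzyme that makes acetyl-CoA from acetate, had means of 884 under arsenite and 1812 under water, 2.05-fold lower. The authors' deposited table listed it at -1.04 on the log2 scale, PPEE 0.994. Me1, the cytosolic malic enzyme that yields NADPH, had means of 7841 under arsenite and 15684 under water, 2.0-fold lower. For this gene the authors' deposited table had -1.0 as log2 ratio and 0.993 as PPEE. Relative to water, Acly stood at 40.1% and Acss2 at 48.8%.

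The carboxylases and the synthase, which carry out the committed steps, had means at 54.5% of the water sum. Fasn, the synthase that assembles palmitate, was the 9th highest of all genes by average mean, with an authors' mean of 30107 under arsenite and 55507 under water. That is 1.84-fold lower, listed as -0.88 on the log2 scale in the authors' deposited table, where PPEE was 0.9996. Acaca, the cytosolic carboxylase whose malonyl-CoA feeds the synthase, had 6140 under arsenite and 11550 under water, 1.88-fold lower. By the authors' deposited table this is -0.91 on the log2 scale, PPEE 0.999. Acacb encodes the carboxylase tied to the outer mitochondrial membrane, whose malonyl-CoA restrains fatty acid entry for oxidation. Its means were 2641 under arsenite and 4271 under water, and the authors' deposited table listed -0.69 on the log2 scale, PPEE 0.993. The deposited values carry no error by which to judge the gap between the carboxylases. Aacs, which activates acetoacetate in the cytosol for lipid synthesis, had 1273 under arsenite and 1785 under water, for which the authors' deposited table gave -0.49 on the log2 scale, PPEE 0.997.

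The regulators spanned most of the range. Thrsp, a thyroid hormone-responsive protein linked to lipogenesis, had an authors' mean of 11739 under arsenite and 23745 under water, 2.02-fold lower, with -1.02 as log2 ratio and 0.999 as PPEE by the authors' deposited table. Mlxipl, which encodes ChREBP, had 1611 under arsenite and 2574 under water, 1.60-fold lower, with -0.68 as log2 ratio and 0.992 as PPEE by the authors' deposited table. Srebf1 had 3140 under arsenite and 3541 under water, 1.13-fold lower, with -0.17 as log2 ratio and 0.999 as PPEE by the authors' deposited table. The Srebf1 ratio was close to the median of the high-level genes, of which 49.2% had a lower one, and it was 0.09 under quantile normalization, above 0. Each value is summed over the gene, so the 2 annotated starts of Mlxipl and the 3 of Srebf1, from which different isoforms arise, are not separated.

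**Figure D2:**
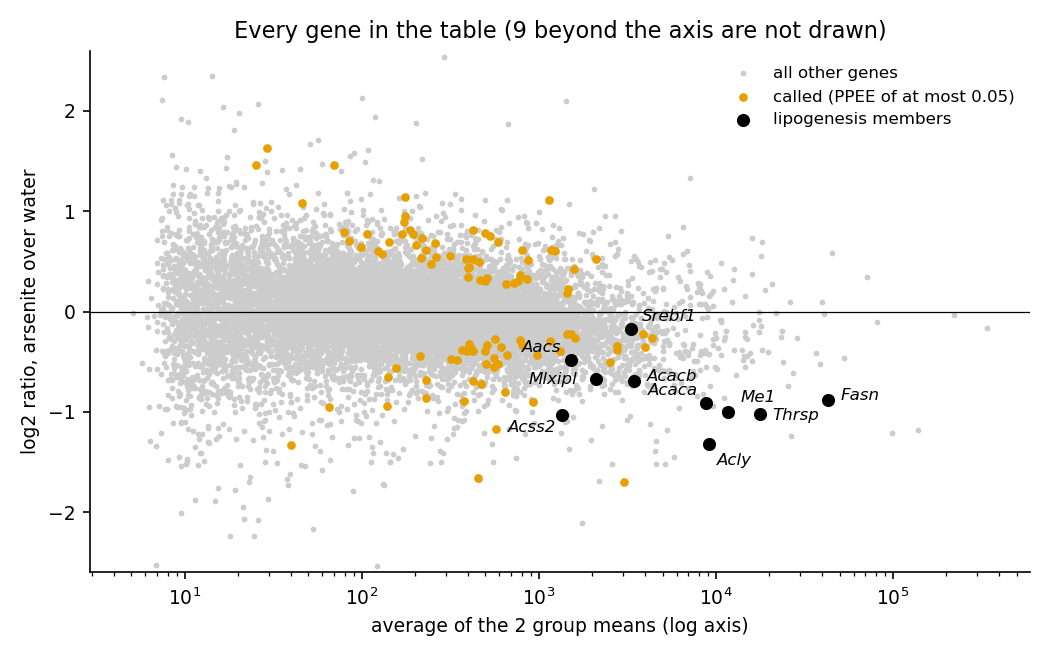
Log2 ratio of arsenite over water against the average of the 2 group means (log axis) for every gene, with the called genes in orange and the 10 lipogenesis genes in black. The 9 genes beyond a log2 ratio of 2.6 in either direction are not drawn. The members sit at the right of the cloud below 0, Fasn farthest right and Acly lowest.

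Set per kilobase of deposited gene length, the members differed widely in level. This step allows genes to be compared only if the means were not already divided by length, which the headers do not state. Thrsp, the shortest at 1.051 kb, had an authors' mean per kilobase of 11170 under arsenite and 22593 under water, 54.1% and 55.9% of the members' sum. Fasn followed with 3029 per kilobase under arsenite and 5585 under water, then Me1 with 2408 and 4815, and Acly with 1180 and 2944. The lowest was Acacb, with 311 per kilobase under arsenite and 503 under water. Next above it came Acss2 under arsenite (312 per kilobase, with 640 under water), and Aacs under water, where Aacs had 401 per kilobase under arsenite and 562 under water. The same 4 genes led in both groups in the same order, while Srebf1, with 730 per kilobase under arsenite and 824 under water, was above Acaca under arsenite (678) and below it under water (1276). Without a spread, neighbours in this order cannot be separated beyond error.

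Levels of some members kept nearly the same proportion to each other while others did not. Fasn exceeded Acaca 4.47-fold per kilobase under arsenite and 4.38-fold under water. Acaca exceeded Acacb 2.18-fold per kilobase under arsenite and 2.54-fold under water. Fasn exceeded Acly 2.57-fold per kilobase under arsenite and 1.90-fold under water, as Acly had the lower ratio. Fasn exceeded Srebf1 4.15-fold per kilobase under arsenite and 6.78-fold under water. These proportions of means have no error of their own and were not tested.

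**Figure D3:**
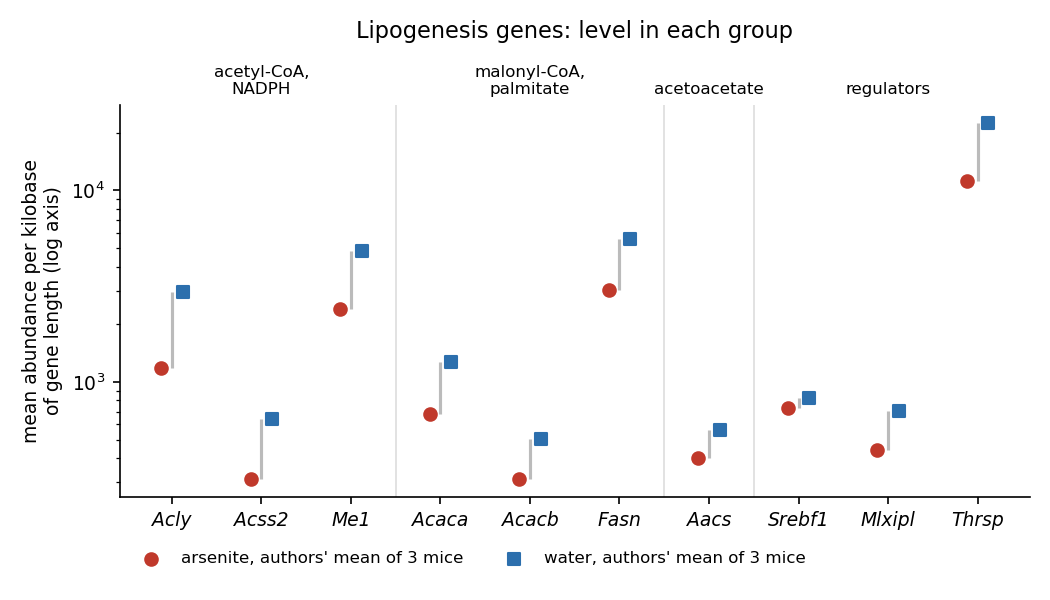
Authors' mean per kilobase of gene length (log axis) for each lipogenesis gene, arsenite as red circles and water as blue squares, grouped by role, with grey lines joining the groups. Every circle lies below its square, with the shortest line for Srebf1 (730 and 824 per kilobase) and the longest for Acly (1180 and 2944).

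The genes spread over 5 autosomes in GRCm38. Fasn spans 120805958 to 120825166, Acly 100476352 to 100528000, Acaca 84129635 to 84401651 and Srebf1 60199084 to 60224186 on chromosome 11, introns included. On chromosome 5 lie Acacb (114146321 to 114250761), Aacs (125475873 to 125517405) and Mlxipl (135089890 to 135139768). Acss2 spans 155518043 to 155562743 on chromosome 2, Thrsp 97412933 to 97417550 on chromosome 7 and Me1 86581363 to 86695914 on chromosome 9. Reads of some members could be shared. Of the 50-base stretches of coding transcripts, 49.1% for Acaca also occur in the pseudogene Gm5182, and 30.4% for Me1 in Gm48795, Gm7049 and Gm7329, so the values of both are uncertain to the extent that reads were split. Exons of Acss2 overlap 3 genes on the other strand (Acss2os, Ggt7 and Gss), which together share 6.53% of its stretches. Those of Srebf1 overlap Rai1 on the other strand, which shares 1.36%, and Mir6922 on the same strand. Mlxipl shares 0.17% of its stretches with Hip1. Me1 exons also overlap A330041J22Rik, and those of Mlxipl overlap Gm43500, both on the other strand. With strand use not given in the sources used here, reads of genes that overlap on opposite strands cannot be told apart. Gss had means of 250 under arsenite and 294 under water and Rai1 176 and 169, below those of Acss2 and Srebf1, while Acss2os and Ggt7 were not analysed here. Fasn, Acacb, Acly, Thrsp and Aacs shared no such stretch with another gene.

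Beyond palmitate, the enzymes that lengthen and desaturate it held the single call among the pathway lists. Of 14 elongation and desaturation genes, 1 was called, in the lower direction, where 0.348% of all genes were called lower. Ratios below 0 were found for 13 of the 14, against 54.5% of all genes. The list's median was -0.26 as deposited and -0.22 after quantile normalization. Elovl6, which extends palmitate to stearate, fell to an authors' mean of 1432 under arsenite, against 4636 under water, listed as -1.69 on the log2 scale with PPEE 3.05e-05 in the authors' deposited table. The desaturase gene Scd1 had 321606 under arsenite and 359351 under water, or -0.16 on the log2 scale by the authors' deposited table. It had the highest average mean of all genes, so quantile normalization, which sets the ratio of a gene of equal rank in both groups to 0, says nothing about it. Its relative Scd2 had 2697 under arsenite and 5853 under water, and Hsd17b12, the ketoacyl reductase of elongation, had 3371 and 5752. The authors' deposited table listed them at -1.12 and -0.77 on the log2 scale, and neither was called.

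Upstream of the pathway, 13 of 14 genes of citrate and acetyl-CoA supply had ratios below 0, with 0 called. The list's median was -0.62 as deposited and -0.44 after quantile normalization. Mdh1, the cytosolic malate dehydrogenase, had authors' means of 6938 under arsenite and 11639 under water. The pyruvate dehydrogenase subunit gene Pdha1 had 6482 under arsenite and 9702 under water, and citrate synthase, Cs, had 5963 and 8056. Of 10 other NADPH-linked genes, 8 lay below 0 (median -0.29 as deposited and -0.17 after quantile normalization, 0 called). The transketolase gene Tkt had 5185 under arsenite and 8763 under water. Taldo1 and Pgd, also of the pentose phosphate route, had 3475 and 2638 under arsenite, against 4271 and 3429 under water. The cytosolic isocitrate dehydrogenase gene Idh1 had 2758 under arsenite and 3282 under water.

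Control of the pathway gave a mixed set of means. The 9 genes of SREBP processing and its nuclear receptors had a median ratio of 0.03, or 0.05 after quantile normalization, with 4 below 0 as deposited and 0 called. Insig1, an SREBP retention factor, had 2619 under arsenite and 3817 under water, the liver X receptor gene Nr1h3 had 885 and 866, and its partner Rxra had 1706 and 1639. Insig2 had 607 under arsenite and 634 under water. Of 8 measured ChREBP partners and targets, 4 lay below 0 and 4 above (median -0.22 as deposited and -0.12 after quantile normalization, 0 called). Gpd1, glycerol-3-phosphate dehydrogenase, had 19269 under arsenite and 32159 under water, and Pnpla3 had 5894 and 8889. Txnip, a glucose-responsive arrestin, was the other way round, with 8384 under arsenite and 4673 under water. The glucose transporter gene Slc2a4 had 2609 under arsenite and 3556 under water. The 11 measured genes that control acetyl-CoA carboxylase or remove malonyl-CoA had a median of -0.41, or -0.35 after quantile normalization. Of these, 9 lay below 0 as deposited and 0 were called. They include Mid1ip1, a relative of Thrsp, with 915 under arsenite and 1359 under water, and Mlycd, malonyl-CoA decarboxylase, with 652 and 1015. The kinase genes Stk11 and Prkaa2, of the AMPK route, had 788 and 551 under arsenite, against 834 and 764 under water. The 12 insulin signalling genes had a median of -0.01 as deposited and 0.08 after quantile normalization, with 7 below 0 as deposited and 0 called. Akt2 had 3752 under arsenite and 3578 under water, the insulin receptor gene Insr 1537 and 1483, Pik3r1 2031 and 2334, and Akt1 867 and 876.

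Lists that share intermediates with the members had ratios nearer 0. The 9 measured genes of ketone body and acetoacetyl-CoA use, which border Aacs, had a median of -0.01 as deposited and 0.03 after quantile normalization, with 6 below 0 as deposited and 0 called. The synthase gene Hmgcs1 had authors' means of 4392 under arsenite and 4312 under water, the thiolase gene Acat1 3178 and 4415, Oxct1 2476 and 2492, and the carrier gene Slc16a1 1457 and 2431. Of 7 measured genes of the separate mitochondrial fatty acid synthesis route, 6 lay below 0, with 0 called. That list's median was -0.27 as deposited and -0.25 after quantile normalization. Among the 6, Ndufab1 had 1284 under arsenite and 1904 under water. Mecr and Lias had 602 and 510 under arsenite, against 840 and 609 under water, and Cbr4 had 317 and 393. Differences between these lists and the members were not tested, since the deposited means give no error.

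**Figure D4:**
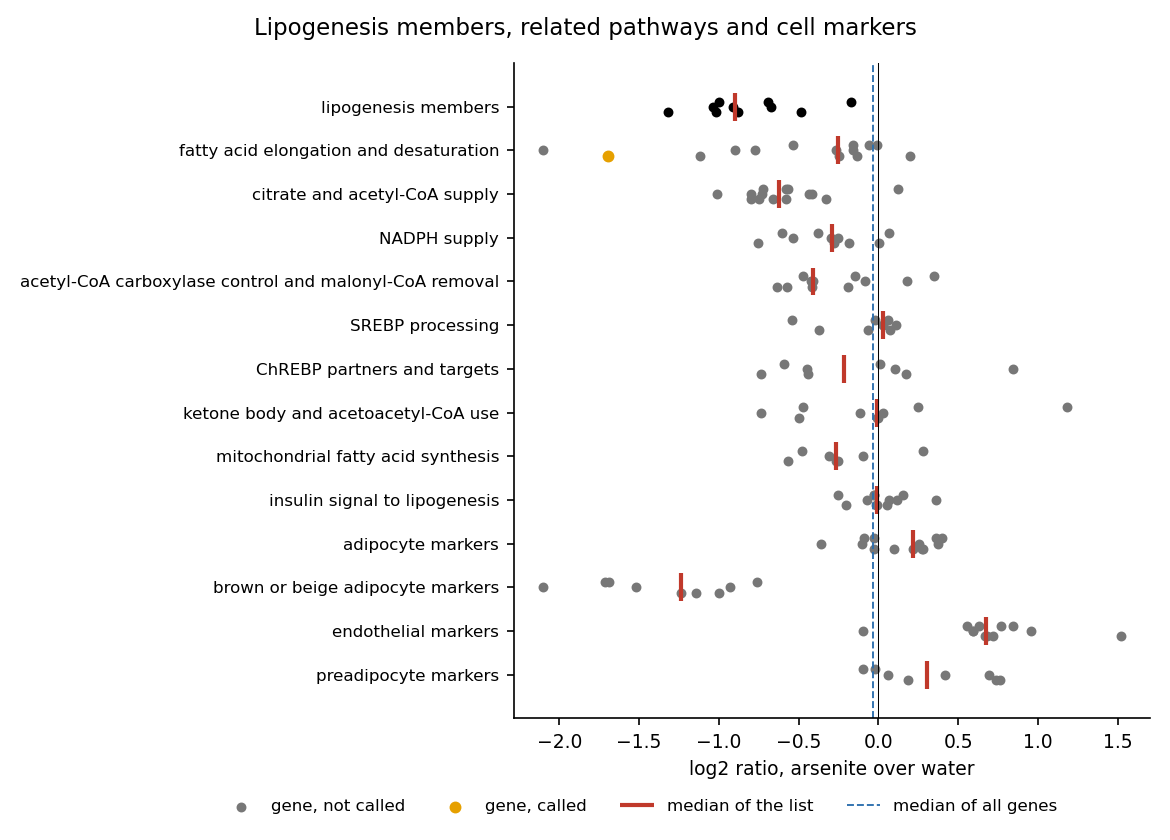
Log2 ratio of arsenite over water for each gene (dots) of the lipogenesis set, of the related pathway lists and of cell markers, with list medians as red bars and the median of all genes dashed. As deposited, the members' median of -0.90 lies between that of citrate and acetyl-CoA supply, -0.62, and that of the brown or beige markers, -1.24. After quantile normalization, which is not drawn here, these medians were -0.63, -0.44 and -1.02. Elovl6 in orange is called.

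Markers of cell types are given beside the members, and none in any list was called. All 9 brown or beige adipocyte markers had ratios below 0, with 0 called, and 1 of them, Elovl3, is also in the elongation list. Their median was -1.24 as deposited and -1.02 after quantile normalization. Their summed authors' means were 23092 under arsenite and 56851 under water, 40.6% of the water sum. Ucp1, the uncoupling protein of heat production, had 15854 under arsenite and 37406 under water, and the lipid droplet gene Cidea had 2372 and 6787. The members' summed means were 70586 under arsenite and 133464 under water, 52.9%. General adipocyte markers summed to 488120 under arsenite and 481134 under water, 101%, with 8 of 13 above 0, a median of 0.21 as deposited and 0.34 after quantile normalization, and 0 called. The fatty acid-binding protein gene Fabp4 had 218556 under arsenite and 223241 under water, and Lpl, lipoprotein lipase, had 78803 and 84667, so adipocyte transcripts were abundant in both groups as the tissue label says. Subtracting the adipocyte marker median, a constant that lowers every gene alike, put the members' median at -1.11. Of 12 endothelial markers 11 lay above 0 (median 0.67, 0 called), summing to 6785 under arsenite and 4150 under water, with Eng at 1004 and 666 and Pecam1 at 1025 and 644. Skeletal muscle markers summed to 191450 under arsenite and 249637 under water, with 10 of 11 below 0 (median -0.41 as deposited and -0.20 after quantile normalization, 0 called), Myh4 at 44653 and 61540 and Tnnt3 at 31625 and 41966. The 16 mammary and other epithelial markers were not analysed here. No measured marker in these lists was at 0, and the part of these cell types in the members' values was not tested.

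**Figure D5:**
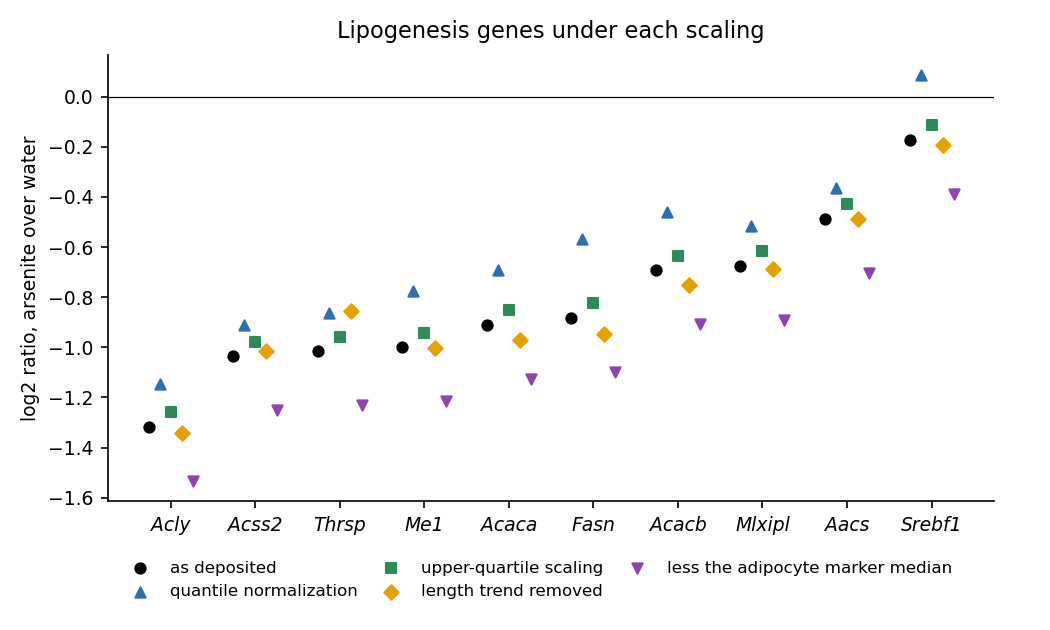
Log2 ratio of each lipogenesis gene, ordered from lowest to highest, as deposited and under 4 other scalings (symbols). Values under quantile normalization lie above the deposited ones, and Srebf1 crosses 0 there, at 0.09, while the other 9 genes lie below 0 under every scaling drawn.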

How the data were processed

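The authors deposited a signal for each gene and group, a mean over the group's samples, per the file headers. The scale of these means is not given there and was taken as count-like, without division by gene length. Reads were aligned to GRCm38 to give 20000000 mapped reads per sample, per the labels' protocols. Bowtie2, HISAT and RSEM are the tools named, per the submitters' processing notes. How libraries were scaled and compared is not given in the sources used here. The group means summed to 7716850 for arsenite and 8608580 for water. The deposited log2 ratio equals that of the means after 0.574 is added to each, to within 3.62e-08. The deposited PPEE lies between 0 and 1, named as in the EBSeq method, and is not a p-value. Columns headed treatment and control were read as arsenite and water.

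No test could be fitted to 2 group means, so calls rest on PPEE. Symbols of 4 listed genes were matched through gene identifiers. Members, lists and bounds were chosen with earlier results of these data known. All 10 members are named, then in each pathway list the called genes and those of highest average mean, up to 4, and in each marker list the 2 highest. In a single pathway list, 1 gene that this rule names is not reported here. Alternatives were quantile normalization, upper-quartile scaling, constants of 0.1 and 5, removal of the lowess length trend (span 0.3), PPEE bounds of 0.01 and 0.1, a mean of 50 or more, an absolute ratio of 1 or more on the log2 scale and subtraction of the adipocyte marker median, the last chosen after seeing the data. Quantile, ratio and length steps were tested on simulated data. Promoters are from RefSeq (GRCm38.p6, all 10 genes matched) and transcripts from GENCODE M21. Scripts ran in Python 3.11.15 with pandas 2.3.3 and numpy 2.4.6, statsmodels 0.14.6 for lowess, scipy 1.17.1 and, for figures, matplotlib 3.10.9.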

Additional observations from a re-analysis of the deposited data

How the results depend on the processing

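The members' median log2 ratio of -0.90 was -0.63 under quantile normalization and -1.11 less the adipocyte marker median. That subtraction also lowers the median of all genes, to -0.25. The members' median was -0.84 with upper-quartile scaling, and within 0.01 of the deposited value with either added constant and with the length trend removed. Quantile normalization left 9 of 10 members below 0, Srebf1 being the exception, and the others left 10, though the subtraction could only lower ratios. Members at or below -0.8 numbered 3 under quantile normalization and 8 after the subtraction, against 6 as deposited. After the subtraction 5.78% of all genes and 9.81% of high-level genes reached that bound, against 2.49% and 3.16% as deposited. Of 60 values for individual members, 39 moved by less than 0.1 on the log2 scale and 21 by more. Upper-quartile scaling and the subtraction shift every gene nearly alike, and the constants are small beside these means. Most of this count was thus fixed by the settings and does not measure robustness. Quantile normalization moved every member by more than 0.1. No member was called with any of the PPEE bounds 0.01, 0.05 and 0.1. Over all genes, 63 were called at 0.01 and 119 at 0.1, and 11 at 0.05 with an absolute log2 ratio of at least 1, against 99. Requiring a mean of at least 50 gave 97. No paired analysis was possible because the deposited table holds group means and the groups share no replicate number. Leaving out a mouse, count models and other tests were not run for the same reason, so no value here shows whether a single mouse sets a mean.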

Other observations

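The deposited annotation attaches the process term fatty acid biosynthesis to 12 genes outside the 10 described, 8 of them with ratios below 0 (median -0.14, 0 called). Among other cell types, 6 of 8 measured preadipocyte markers lay above 0 (median 0.30, 0 called), with Ly6a at authors' means of 1363 under arsenite and 1461 under water and Cd34 at 631 and 605. Macrophage markers had a median of -0.07 over 10 genes as deposited and -0.04 after quantile normalization (0 called), with Lyz2 at 1798 under arsenite and 2166 under water and Mrc1 at 696 and 843. The 5 measured lymphocyte markers were all below 0 at low levels, from -1.35 for Cd3g to -0.44 for Cd3d (median -1.12, 0 called). The highest in level were Cd3d at 17.6 under arsenite and 24.1 under water and Cd8a at 17.3 and 24.4. Of 9 genes listed as hepatocyte markers, 3 lay below 0 (median 0.01 as deposited and -0.00 after quantile normalization, 0 called). Among them Cyp2e1, which adipocytes also express, had 8187 under arsenite and 6165 under water, and Alb had 594 and 656.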
